A study of Mus musculus with 12 samples.

Results

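The PDGF ligand genes Pdgfa, Pdgfb, Pdgfc and Pdgfd and the receptor genes Pdgfra and Pdgfrb were followed in single-cell RNA sequencing of mouse fetal gonads. The 6 genes were taken by symbol from the 32285 features of the count tables, and all 6 were present. Their measured levels were not part of the rule, but earlier results of these data were known when genes and tests were chosen. Gonads had been collected at E12 (23 ± 3 tail somites) from XX and XY embryos that were wild type (WT), lacked the -KTS splice variant of the transcription factor WT1 (-KTS KO) or lacked its +KTS variant (+KTS KO). Each of the 6 groups had 2 libraries, 12 in all. The lines shared a mixed B6CBAF1/JRj background, and each mutant allele still makes the other variant of WT1 in every cell that transcribes the gene. Gonads were separated from the mesonephros, and -KTS KO samples were pooled from more than 1 embryo, so a library was not always 1 animal. The comparisons asked whether the loss of either variant, or the sex of the gonad, went with a different level of each gene.

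PDGF ligands are secreted growth factors that act as dimers on a pair of receptor tyrosine kinases. PDGF-A is a ligand of PDGFRα, PDGF-B binds both receptors, PDGF-C mainly PDGFRα and PDGF-D mainly PDGFRβ, and PDGF-C and PDGF-D are secreted in a latent form that proteases activate. In the fetal testis, Sertoli cells are a known source of PDGF-A and interstitial cells carry PDGFRα, whose loss is known to impair cord formation and fetal Leydig cell differentiation. PDGF-B from endothelial cells is known for recruiting PDGFRβ-bearing pericytes to vessels.

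The 12 libraries held 103730 barcodes and between 108111924 and 147968666 unique molecular identifiers (UMIs, counts of captured transcripts) each. After filters on detected genes, mitochondrial share and doublets, 76976 cells remained, of which 66207 were gonadal somatic cells, that is, neither germ, endothelial, immune, blood nor duct cells. This set was defined by exclusion and held 11204 cells of unnamed clusters. It also held 2 small clusters (30 and 32) with Myog or Foxd1 among their leading genes, which may not be gonadal types. Between libraries, 740 barcodes occurred more than once (1487 of the kept cells). Clusters were named from marker genes, the 6 PDGF genes were left out of the clustering, and each name means that the cluster resembled that type. Wt1 itself was 158 to 309 CPM in somatic cells in all groups, and since reads came from transcript ends, which its splice variants share, the loss of a variant could not be checked. Xist was 537 to 749 CPM in the XX and at most 0.156 in the XY libraries, and Ddx3y was at 0 in every XX and 40.9 to 63.2 CPM in the XY libraries, as labelled. The library XY +KTS KO replicate 1 stood apart. Its 7 immediate-early genes (Fos, Egr1 and others) summed to 2419 CPM (counts scaled to a common total per library and cell set) in somatic cells against 412 to 772 in the other 11, and 49.1% of its somatic cells were pre-granulosa-like against 0.176% in replicate 2, where 37.7% lay in an unnamed cluster that matched pre-supporting markers best. The differences called in XY +KTS KO are given with and without it where they are described.

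The genes lie apart in the genome (GRCm38, GENCODE M21, whole gene spans). Pdgfa is at chr5:138976014-138997370 on the minus strand, Pdgfb at chr15:79995874-80014977 (minus), Pdgfc at chr3:81036416-81214040 (plus), Pdgfd at chr9:6168584-6378850 (plus) and Pdgfra at chr5:75152292-75198215 (plus). Promoter windows of 300 bases from RefSeq (GRCm38.p6) are shown for Pdgfa and Pdgfra. This ligand and this receptor were called in opposite directions in the coelomic-epithelium-like cells of -KTS KO gonads. That set of cells was added after its levels had been seen, it came from different clusters in the groups compared, and several of its calls were lost under other settings. WT1 is a zinc-finger protein that binds GC-rich DNA. The windows were searched on both strands for GCGTGGGAG, GCGTGGGCG and GNGGGGGNG (capitals mark a match). The Pdgfa windows are at chr5:138994232-138994531 and chr5:138994895-138995194, the Pdgfra window at chr5:75152001-75152300, all printed 5′ to 3′ on the gene's strand.
Pdgfa window 1: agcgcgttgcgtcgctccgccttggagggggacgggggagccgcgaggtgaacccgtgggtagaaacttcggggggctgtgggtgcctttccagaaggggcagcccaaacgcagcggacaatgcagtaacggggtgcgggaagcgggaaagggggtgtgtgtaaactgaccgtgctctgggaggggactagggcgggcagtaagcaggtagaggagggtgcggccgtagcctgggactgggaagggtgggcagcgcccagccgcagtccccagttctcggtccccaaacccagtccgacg
Pdgfa window 2: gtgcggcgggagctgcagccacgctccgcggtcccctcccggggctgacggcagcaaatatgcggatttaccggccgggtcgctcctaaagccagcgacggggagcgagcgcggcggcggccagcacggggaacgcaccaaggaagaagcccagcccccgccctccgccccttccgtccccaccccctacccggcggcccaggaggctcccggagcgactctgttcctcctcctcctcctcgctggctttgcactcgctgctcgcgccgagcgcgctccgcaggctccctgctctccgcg
Pdgfra window: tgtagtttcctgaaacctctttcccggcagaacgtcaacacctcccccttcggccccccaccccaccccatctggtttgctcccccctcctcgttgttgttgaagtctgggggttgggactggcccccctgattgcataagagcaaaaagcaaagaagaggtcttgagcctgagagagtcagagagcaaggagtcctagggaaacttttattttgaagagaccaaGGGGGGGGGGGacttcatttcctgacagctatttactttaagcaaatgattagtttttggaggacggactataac
Both Pdgfa windows were GC-rich (67% and 73.3%) and held none of the 3 motifs, and neither did the Pdgfc and Pdgfd windows. The Pdgfra window (51% GC) held GNGGGGGNG in 3 overlapping places within a run of 11 G. That motif occurred in 18.8% of 32851 windows, GCGTGGGAG in 0.472% and GCGTGGGCG in 0.612%. A match is a description of these letters and not a binding site.

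Among the named classes found in several libraries, Pdgfa had its highest mean levels in germ-like and pre-supporting-like cells. The mesonephric-duct-like class, 62 cells of XY +KTS KO replicate 2, held 219 CPM, with a Pdgfa UMI in 88.7% of cells (62.9% at 5000 UMIs a cell), and cannot be compared over libraries. Germ-like cells held 172 ± 18.2 CPM (SD over 12 libraries), and this level varied little between groups, from 149 in XX WT replicate 2 to 208 in XX -KTS KO replicate 1. Sertoli-like cells held 246 and 194 CPM in the XY WT libraries, where nearly all of these cells were found. Pre-supporting-like cells, the common precursor type, ranged from 49.0 to 293 CPM (mean 157 ± 94.0, 11 libraries) and pre-granulosa-like cells, the ovarian supporting type, from 34.0 to 81.7 CPM (mean 55.04 ± 18.2, 6 libraries), below the mean of the cells in unnamed clusters (60.9 ± 25.3, 12 libraries). Lower levels were found in coelomic-epithelium-like (34.6 ± 15.6), interstitial-progenitor-like (20.1 ± 4.75, 8 libraries) and mesenchyme-like cells (16.6 ± 7.78), whose spreads overlapped. With each cell thinned to 5000 UMIs, 56.2% ± 4.23 of germ-like cells held a Pdgfa UMI (92.5% unthinned) against 2.58% ± 3.88 of erythrocyte-like cells (7.38% unthinned), a class that should lack the transcript. Median depths per library were 21921 to 60206 UMIs in germ-like and 3943 to 38100 in erythrocyte-like cells.

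Pdgfb was mainly endothelial. Endothelial-like cells held 90.6 ± 30.3 CPM over 12 libraries, immune-like cells 17.8 ± 12.1 (6 libraries) and the named gonadal somatic classes means of 0.324 to 1.34. Endothelial-like cells carried 73.3% ± 7.24 of each library's Pdgfb UMIs, between 61.4% in XY WT replicate 1 and 86.8% in XX WT replicate 2. Among thinned cells, 33.9% ± 9.001 of endothelial-like cells held a UMI (64.1% unthinned) against 0.195% of germ-like cells (1.84% unthinned). The median depth of endothelial-like cells was 13183 to 27943 UMIs.

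Pdgfc and Pdgfd, the latent ligands, both had their highest mean in coelomic-epithelium-like cells among the named classes. Pdgfc was at 56.3 ± 15.9 CPM there, followed by pre-granulosa-like (37.4 ± 27.6, 6 libraries), interstitial-progenitor-like (36.1 ± 6.85, 8 libraries), pre-supporting-like (26.7 ± 17.2) and mesenchyme-like cells (24.0 ± 11.99). Each neighbour in this order differed from the next by less than the larger of their SDs. The pre-granulosa-like libraries ran from 15.5 to 74.2 CPM. Their median of 23.8 CPM lay below that of interstitial-progenitor-like cells (37.6). In cluster 3, which held 2274 and 2251 cells of XX WT and 80 of XY WT replicate 2, the median was 16.1 CPM and the highest value 75.8. Pdgfc was nearly absent from germ-like cells (0.885 ± 0.447 CPM). Within the Sertoli-like cells of XY WT it differed between clusters, with 24.2 and 48.8 CPM in cluster 13 and 2.66 and 9.39 CPM in cluster 12, the cluster led by Amh and Sox9. Pdgfd was scarce everywhere. It reached 8.48 ± 2.43 CPM in coelomic-epithelium-like, 5.63 ± 1.77 in interstitial-progenitor-like and 5.27 ± 2.07 in mesenchyme-like cells, and 3.27 ± 1.87 in endothelial-like cells, and the interstitial and mesenchyme-like levels do not differ beyond their spread.

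Pdgfra marked the stroma. Mesenchyme-like cells held 103 ± 38.5 CPM and interstitial-progenitor-like cells 88.1 ± 30.3, which do not differ beyond their spread. Coelomic-epithelium-like cells followed with 42.6 ± 25.4, then Sertoli-like (19.3 ± 12.8), pre-supporting-like (14.7 ± 13.7) and pre-granulosa-like cells (14.5 ± 3.83). Germ-like (0.791) and endothelial-like cells (1.61) were near 0. After thinning, 37.3% ± 10.2 of mesenchyme-like and 33.1% ± 6.24 of interstitial-progenitor-like cells held a Pdgfra UMI (57.3% and 58.2% unthinned), against 0.302% of germ-like cells (2.37% unthinned). Pdgfrb (chr18:61045150-61085061, plus strand) was found in the same cells and was more unevenly spread. Its mean was 41.6 ± 30.4 CPM in mesenchyme-like cells, 11.1 ± 2.87 in interstitial-progenitor-like and 7.68 ± 4.64 in coelomic-epithelium-like cells, and 0.274 in endothelial-like cells. No cluster was named perivascular, so any pericytes lay within other classes, and their part in these levels was not tested.

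**Figure D1:**
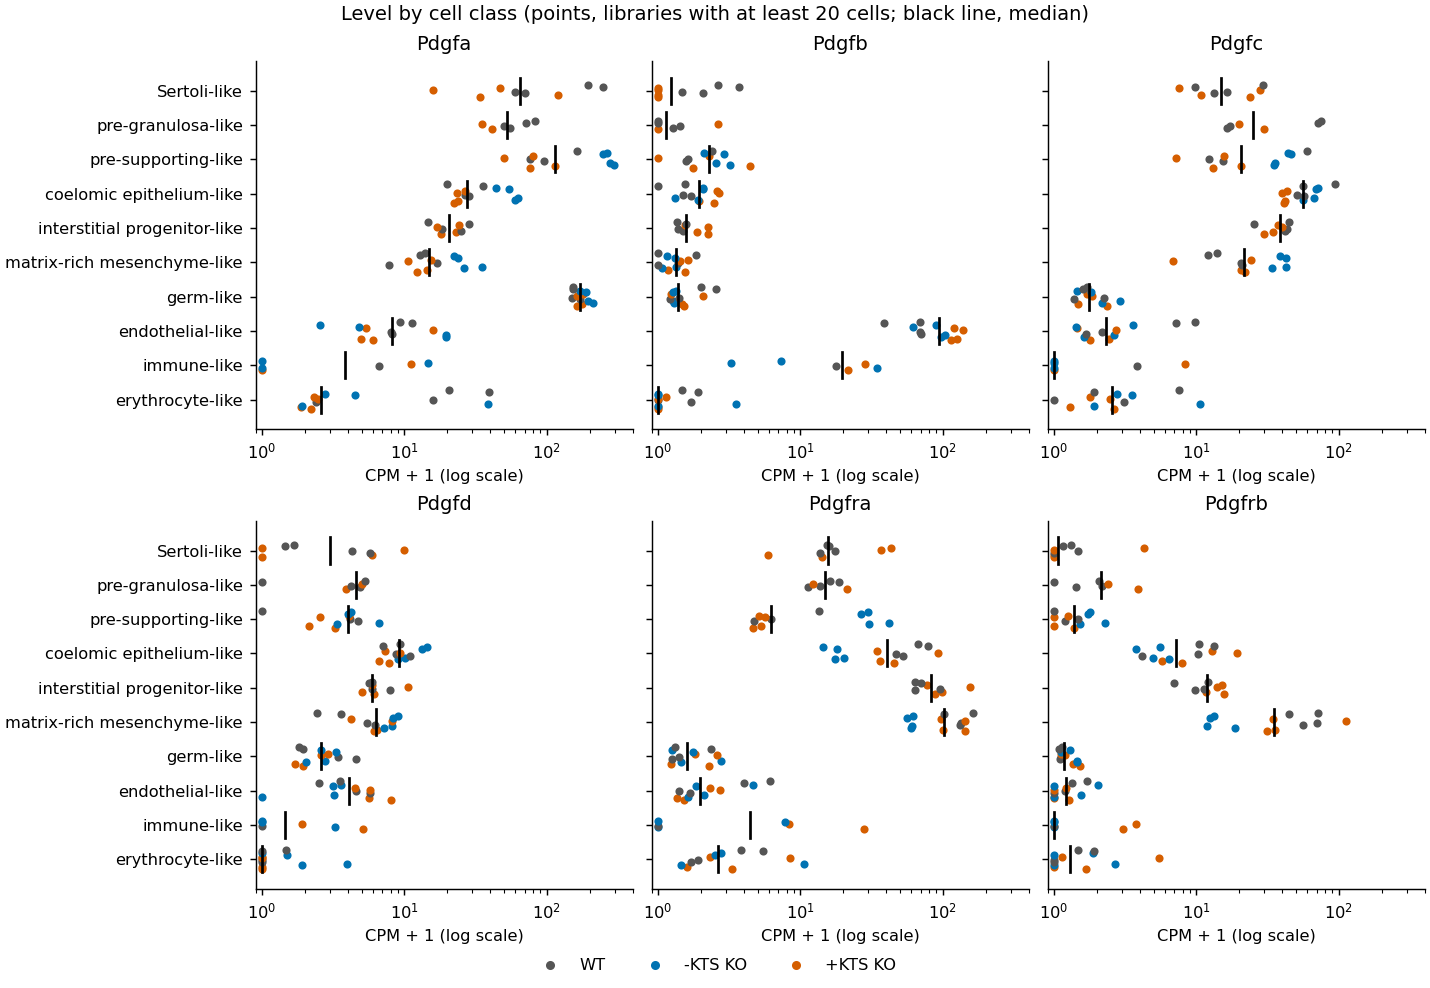
Level of each gene by cell class in CPM + 1 on a log axis, 1 point per library with at least 20 cells of the class, coloured by genotype, with the median as a black line. Pdgfa is high in germ-like cells and in part of the pre-supporting-like and Sertoli-like libraries, Pdgfb in endothelial-like cells (mean 90.6 CPM), Pdgfc in coelomic-epithelium-like cells and both receptors in mesenchyme-like cells.

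Within the mesenchyme-like class the receptors split by genotype. Pdgfra ranged from 54.96 to 60.5 CPM over the 4 -KTS KO libraries, against 130.4 and 132 in XX WT and 101 and 162 in XY WT. Pdgfrb was 17.5, 10.8, 11.5 and 12.2 CPM in the same -KTS KO libraries, against 54.6 and 69.3 in XX WT and 43.5 and 69.9 in XY WT. The +KTS KO libraries held 95.3 to 143 CPM of Pdgfra and 30.2 to 112 of Pdgfrb (112 in XY +KTS KO replicate 1, at most 34.8 in the other 3). The groups with and without -KTS did not overlap for either gene. How many of all genes separate these groups in the same way was not counted, so nothing particular to the receptors is read from this. Most cells of the class were in clusters 1 and 14 in -KTS KO and in cluster 5 in the others, so these values are a description of rebuilt classes and no test was made on them. Within cluster 1, Pdgfrb was 13.5 to 19.7 CPM in the -KTS KO libraries, 18.9 in XX WT replicate 2 (22 cells, 3 UMIs) and 83.9 in XX +KTS KO replicate 2 (129 cells). Pdgfra in cluster 1 was 65.8 to 82.8 CPM in -KTS KO and 94.6 and 71.7 in those other libraries, and the range of -KTS KO held the last of these. In cluster 14, with 31 and 41 cells in the same other libraries, Pdgfrb was 5.53 to 13.9 CPM in -KTS KO against 17.0 and 33.2, and Pdgfra 29.5 to 39.0 against 53.0 and 70.5.

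By the pattern over 112 sums of a class in a library (12 classes, log2 of CPM + 1, genes with a mean of at least 5 CPM), the gene most like Pdgfa was Folr1 (Pearson's r 0.86 across the sums), followed by Wfdc2 (0.85) and Bex1 (0.84). Pdgfc was most like Smarcd3 (0.92) and Pdgfd most like Mpdz (0.76). Pdgfb, at 0.998 CPM in somatic cells, was just under the minimum of 1 CPM set for members of this search, and its closest genes, named here outside that rule, were Rasgrp3, Mfng and Gimap1 (0.94 each). Pdgfra was most like Clca3a1 (0.94) and Olfml1 (0.93), and Pdgfrb most like the collagen genes Col6a3 (0.90) and Col1a2 (0.90). The sums share libraries and classes, and the values describe likeness of pattern alone.

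The cells that contributed Pdgfa and Pdgfra UMIs changed with genotype. In XY WT, Sertoli-like cells carried 57.5% and 57.0% of all Pdgfa UMIs and germ-like cells 30.3% and 37.1%. In -KTS KO, pre-supporting-like cells carried 51.2% and 24.9% (XX) and 47.9% and 49.98% (XY), with 56.9% from germ-like cells in XX replicate 2. For Pdgfra, interstitial-progenitor-like cells carried 83.1% and 62.9% in XY WT, and mesenchyme-like cells 73.9%, 59.5%, 70.9% and 72.5% in -KTS KO. Cell composition moved the same way, with interstitial-progenitor-like cells at 57.7% and 35.8% of somatic cells in XY WT and at most 0.355% in every -KTS KO library, and mesenchyme-like cells at 37.3% to 54.6% in -KTS KO against 2.33% to 8.08% in WT. In sums over somatic cells, more cells of a type and more RNA per cell cannot be told apart.

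**Figure D2:**
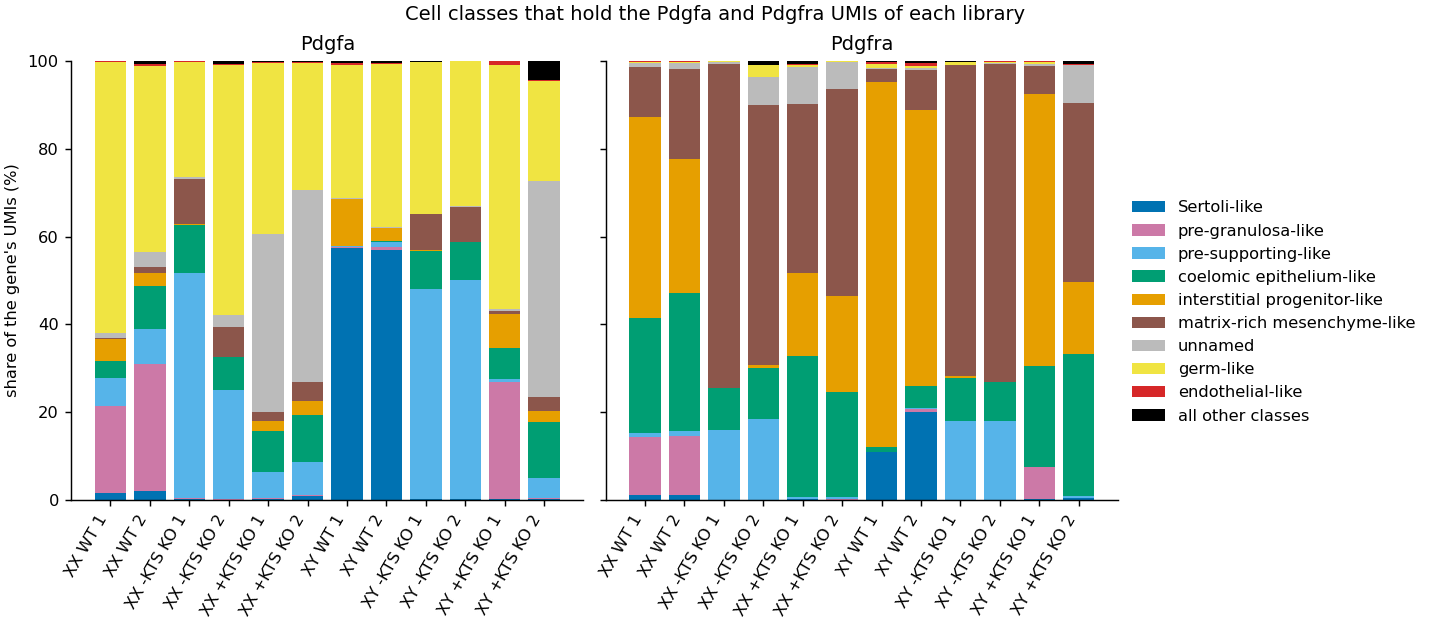
Share of all Pdgfa UMIs (left) and Pdgfra UMIs (right) of each of the 12 libraries that came from each cell class, in percent. Pdgfa comes mainly from Sertoli-like cells in XY WT (57.5% and 57.0%) and from pre-supporting-like cells in -KTS KO, except in XX -KTS KO replicate 2, where germ-like cells gave 56.9%, and Pdgfra mainly from interstitial-progenitor-like cells in XY WT and mesenchyme-like cells in -KTS KO.

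In gonadal somatic cells, tests were made on UMIs summed per library with edgeR's quasi-likelihood test over 17715 genes, with Benjamini-Hochberg adjustment and a threshold of 0.05, and all 6 genes passed the filter on low counts. P-values measure the spread between 2 libraries a group. A fit without 1 library leaves its group with a single library, which is assumed to vary like the other groups, so its p-value carries no spread from that group. Comparisons with the same WT group share its libraries.

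In WT gonads, the sexes differed in 2 of the 6 genes, beside 13.3% of all genes tested. Pdgfa was 44.2 and 38.5 CPM in XX WT and 108 and 113 in XY WT, without overlap. It was higher in XY by 1.49 ± 0.27 on the log2 scale (SE, edgeR adjusted p = 0.00712), and the call was lost without XX WT replicate 2 (adjusted p = 0.0787). Pdgfb was 0.445 and 0.455 CPM in XX WT and 1.34 and 1.06 in XY WT, 1.496 ± 0.29 higher in XY (edgeR adjusted p = 0.00995). That call was lost without either XX WT library or XY WT replicate 1 (adjusted p 0.0688 to 0.0812), and in a sum over all kept cells, which holds the endothelium, the difference was 0.39 (adjusted p = 0.397). The Pdgfb sums held 30, 40, 100 and 68 UMIs, and the 7 endothelial markers summed to 46.2, 48.0, 48.1 and 54.4 CPM in these somatic cells. Pdgfc, Pdgfd and the receptors did not pass, with adjusted p from 0.0685 for Pdgfd (-0.81 ± 0.26) to 0.729 for Pdgfrb.

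Supporting-lineage cells alone (Sertoli-, pre-granulosa- and pre-supporting-like, 15258 genes tested) showed 3 differences between the WT sexes, beside 20.9% of all genes tested. Pdgfa was 61.2 and 53.3 CPM in XX WT, mainly from clusters 3 and 24, and 245 and 190.0 in XY WT, mainly from clusters 12 and 13. Cluster 13 also held 157 and 146 cells of XX WT, and cluster 3 held 80 of XY WT replicate 2. Pdgfa was higher in XY by 2.01 ± 0.37 (edgeR adjusted p = 0.00291), and each of the 12 alternative settings kept the call. Pdgfb was also higher, by 2.43 ± 0.53 (adjusted p = 0.00798), from 13 and 20 UMIs in XX WT and 73 and 57 in XY WT, a call lost without either XX WT library or XY WT replicate 1 (adjusted p 0.0535 to 0.0693). Pdgfd went the other way, with 3.93 and 3.21 CPM in XX WT and 0.436 and 0.754 in XY WT, lower by 2.49 on the log2 scale (log2 fold change -2.49 ± 0.41, adjusted p = 0.00164) under every setting.

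In whole somatic sums of -KTS KO gonads, Pdgfa was higher in XX, Pdgfc and Pdgfd were higher in XY, and neither receptor passed the test. In XX -KTS KO, 1 of the 6 genes was called beside 16.2% of all genes tested. Pdgfa rose from 44.2 and 38.5 CPM in XX WT to 95.6 and 95.4, by 1.26 ± 0.27 (edgeR adjusted p = 0.0121). The call was lost when any 1 of the 4 libraries was left out (adjusted p 0.0562 to 0.0994), with the size between 1.14 and 1.39. The 7 germ markers summed to 56.7 CPM in the somatic cells of XX -KTS KO replicate 2 and to 3.97 to 34.1 in the other 11 libraries, while germ-like cells themselves held 6066 to 8740 CPM of them. In XY -KTS KO, 2 genes were called beside 23.5% of all genes tested. Pdgfd was 3.07 and 2.60 CPM in XY WT and 7.28 and 8.21 in the mutants, higher by 1.40 ± 0.26 (adjusted p = 0.00445) under each of 15 alternative settings. Pdgfc was 18.9 and 37.2 CPM in XY WT and 48.4 and 47.6 in the mutants, higher by 0.76 ± 0.23 (adjusted p = 0.0396). The Pdgfc call was lost in the fit of the 2 groups alone (adjusted p = 0.109) and without XY WT replicate 1, where the rise was 0.40 (adjusted p = 0.168), or either mutant library (0.133 and 0.126). Pdgfa in XY -KTS KO was 90.0 and 87.6 CPM against 108 and 113 in XY WT, a difference of -0.35 ± 0.27 that did not pass (adjusted p = 0.383).

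Averaged over the sexes, the -KTS KO effect was called for Pdgfd (0.89 ± 0.18, edgeR adjusted p = 0.00499) and Pdgfc (0.61 ± 0.16, adjusted p = 0.0182), beside 31.1% of all genes tested. The Pdgfc call was lost without either XX WT library or without XX -KTS KO replicate 2 (adjusted p 0.0525 to 0.0678). The effect of -KTS loss on Pdgfa differed between XY and XX by -1.61 ± 0.38, which did not pass (adjusted p = 0.0531), and no gene of the 6 did, beside 3.04% of all genes tested. The unadjusted p was below 0.05 for 3 of them, beside 3208 of 17715 genes, and DESeq2 called Pdgfa and Pdgfb (adjusted p = 0.00237 and 0.0407). Pdgfra and Pdgfrb were called in none of the 10 somatic comparisons, with unadjusted p below 0.05 in XY +KTS KO for Pdgfrb (0.92 ± 0.30, unadjusted p = 0.0114, adjusted p = 0.0702) and in the mean +KTS KO effect for Pdgfrb (0.67 ± 0.21, adjusted p = 0.0646). DESeq2 called Pdgfrb in both (adjusted p = 0.0334 and 0.0248). The edgeR values were 0.94 (adjusted p = 0.143) and 0.68 (adjusted p = 0.0889) without XY +KTS KO replicate 1, and DESeq2 was not run without it.

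**Figure D3:**
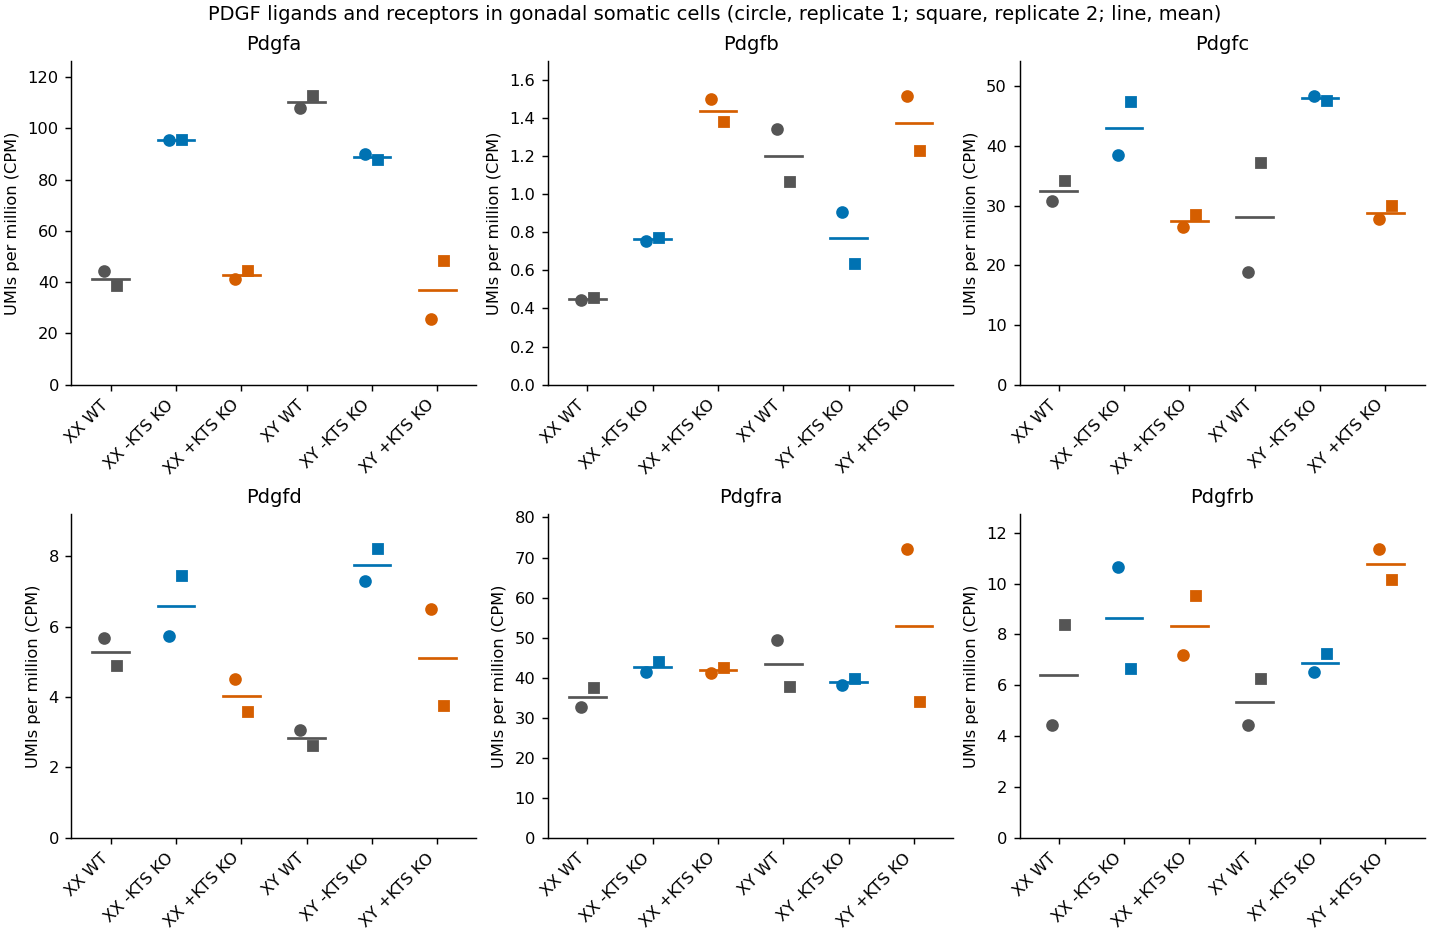
Level of the 6 genes in CPM in gonadal somatic cells of each library, with replicate 1 as a circle, replicate 2 as a square and the group mean as a line, each axis starting at 0. Pdgfa is low in XX WT (44.2 and 38.5) and in +KTS KO and high in XY WT and both -KTS KO groups, while neither receptor was called in any of the 10 comparisons at an adjusted p below 0.05.

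In the supporting lineage, Pdgfc and Pdgfra were higher in -KTS KO than in WT in both sexes. In XX -KTS KO, 4 of the 6 genes were called beside 16.3% of all genes tested. Pdgfa was 294 and 276 CPM against 61.2 and 53.3 in XX WT, higher by 2.40 ± 0.37 (edgeR adjusted p = 0.00157). Pdgfra was 29.0 and 40.7 CPM against 9.49 and 11.8, higher by 1.80 ± 0.21 (adjusted p = 0.000311). Neither gene's groups overlapped, and both calls held under each of 12 alternative settings. The compared cells differed in class, since 2275 of 2889 and 2263 of 2824 supporting-lineage cells of XX WT were pre-granulosa-like and nearly all of XX -KTS KO were pre-supporting-like. Within the pre-supporting-like class, Pdgfa was 93.8 and 75.7 CPM in XX WT (457 and 415 cells) and 293 and 276 in XX -KTS KO (851 and 690 cells), from different clusters and without a test. Pdgfb (2.28 ± 0.55, adjusted p = 0.0170) lost its call without either XX WT library or XX -KTS KO replicate 1 (adjusted p 0.0827 to 0.133). Pdgfc (1.27 ± 0.37, adjusted p = 0.0381) lost it without any of the 4 libraries (0.127 to 0.158), and was 0.71 (adjusted p = 0.235) once unnamed clusters that matched pre-supporting markers were added, 0.73 (adjusted p = 0.199) at resolution 0.4 and 1.26 (adjusted p = 0.0723) at resolution 1.2.

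In XY -KTS KO, 3 genes were called beside 29.0% of all genes tested. Pdgfd was 3.04 and 3.21 CPM against 0.436 and 0.754 in XY WT, higher by 2.39 ± 0.42 (edgeR adjusted p = 0.00155), under every setting. Pdgfra was 25.4 and 28.6 CPM against 15.0 and 14.3, higher by 0.90 ± 0.20 (adjusted p = 0.00717), a call lost without XY WT replicate 2 or XY -KTS KO replicate 2 (adjusted p 0.0576 and 0.0522) and with clustering on log-normalized values (0.57, adjusted p = 0.195). Pdgfc was 44.7 and 43.1 CPM against 9.23 and 30.1, higher by 1.203 ± 0.36 (adjusted p = 0.0295), and without XY WT replicate 1 by 0.62 (adjusted p = 0.0525). It was also lost without either mutant library (0.0946 and 0.0854). Pdgfa itself was 245 and 262 CPM in XY -KTS KO and 245 and 190.0 in XY WT, which overlap (0.23 ± 0.35, adjusted p = 0.676). Nearly all supporting-lineage cells of -KTS KO gonads lay in cluster 7, which was pre-supporting-like and held 850 and 688 cells of the XX and 1201 and 1096 of the XY libraries. Sertoli-like cells were at most 0.0985% of somatic cells in a -KTS KO library.

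Coelomic-epithelium-like cells were added as a set after their levels had been seen. There Pdgfa and Pdgfra moved in opposite directions in both -KTS KO groups. In XX, 2 genes were called beside 7.59% of 14684 genes tested. Pdgfa was 59.1 and 61.8 CPM against 27.2 and 25.6 in XX WT, higher by 1.24 ± 0.19 (edgeR adjusted p = 0.00255) under each of 11 settings. Pdgfra was 16.4 and 19.2 CPM against 51.9 and 46.0, lower with a log2 fold change of -1.42 ± 0.33 (adjusted p = 0.0209). The Pdgfra call was lost without any of the 4 libraries (adjusted p 0.0682 to 0.144), with the size between -1.51 and -1.31, and with clustering on log-normalized values (-1.04, adjusted p = 0.0638). In XY, the same 2 genes were called beside 2.81% of all genes tested. Pdgfa was 53.2 and 43.0 CPM against 34.7 and 18.9 (1.18 ± 0.26, adjusted p = 0.0310) and Pdgfra 17.1 and 13.3 against 77.6 and 66.1 (-2.06 ± 0.38, adjusted p = 0.0129), both without overlap. The Pdgfa call was lost without XY WT replicate 2 (0.61, adjusted p = 0.581) or XY -KTS KO replicate 1 (0.998, adjusted p = 0.130), at resolution 1.2 (0.88, adjusted p = 0.100) and with clustering on log-normalized values (0.87, adjusted p = 0.0678). The Pdgfra call was lost without either XY WT library or XY -KTS KO replicate 2 (adjusted p 0.0706 to 0.203). XY WT had only 64 and 196 such cells, and most of the class was in cluster 6 in -KTS KO, clusters 16 and 11 in XX WT, cluster 16 in XY WT and clusters 9 and 11 in +KTS KO. No gene was called in the coelomic cells of XX +KTS KO, XY +KTS KO or between the WT sexes, beside 2.52%, 0.429% and 0.0953% of genes tested by edgeR. There 2 of 18 values had an unadjusted p below 0.05 by edgeR, beside 1905, 1940 and 1250 of 14684 genes in the same order. They were Pdgfb in XX +KTS KO (0.0466) and Pdgfc in XY +KTS KO (0.00248), which DESeq2 called (adjusted p = 0.0121). That Pdgfc difference was -0.81 by edgeR, -0.66 (adjusted p = 0.159) without XY +KTS KO replicate 1 and, with the direction turned, 0.028 (adjusted p = 0.957) with clustering at resolution 0.4.

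**Figure D4:**
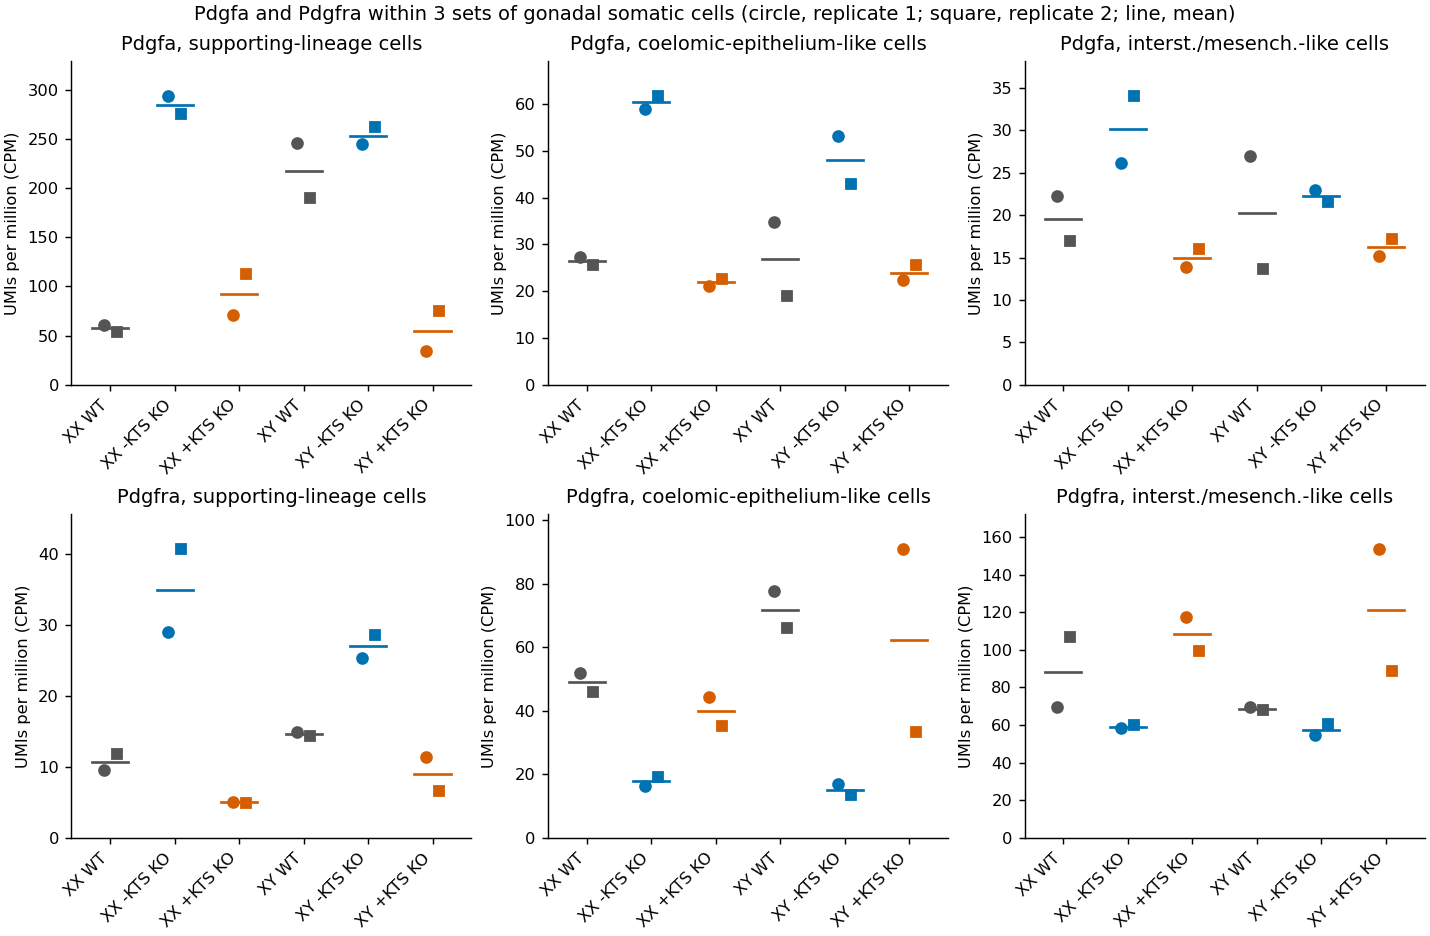
Pdgfa (top) and Pdgfra (bottom) in CPM within supporting-lineage, coelomic-epithelium-like and interstitial plus mesenchyme-like cells of each library, with replicate 1 as a circle, replicate 2 as a square and the group mean as a line. Both -KTS KO groups have high Pdgfa (245 to 294) and Pdgfra in the supporting lineage and low Pdgfra (13.3 to 19.2) in the coelomic epithelium.

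Interstitial-progenitor-like cells could be compared only outside -KTS KO, since those libraries held 4, 7, 18 and 3 of them. None of the 6 genes was called there in XX +KTS KO, XY +KTS KO or XY against XX WT, beside 0.636%, 4.31% and 2.48% of 13674 genes tested by edgeR. DESeq2 called none either. Over all genes, the unadjusted p by edgeR was below 0.05 for 1412, 2906 and 1757 in the same order. Pdgfra in XY +KTS KO was the only 1 of the 18 values with an unadjusted p below 0.05, at 154.9 and 76.5 CPM against 68.8 and 62.6 (0.67 ± 0.28, unadjusted p = 0.0389, adjusted p = 0.208), and 0.19 (adjusted p = 0.680) without replicate 1. In the joined interstitial and mesenchyme-like cells, a set added after seeing the data, Pdgfra was 58.6 and 59.8 CPM in XX -KTS KO against 69.6 and 107 in XX WT (-0.48 ± 0.23, adjusted p = 0.248) and 54.6 and 60.4 in XY -KTS KO against 69.6 and 67.9 in XY WT (-0.36 ± 0.23, adjusted p = 0.308). No gene was called in that set either (background 7.24%, 17.6%, 0.987%, 8.45% and 2.08% of 15299 genes for XX -KTS KO, XY -KTS KO, XX +KTS KO, XY +KTS KO and the WT sexes). The unadjusted p by edgeR was below 0.05 for 5 of its 30 values, beside 3490, 4933, 1993, 4199 and 2193 of 15299 genes in the same order. These 5 were Pdgfa in XX -KTS KO (0.0478), Pdgfc in XX +KTS KO (0.0298), Pdgfra and Pdgfrb in XY +KTS KO (0.0133 and 0.00975) and Pdgfrb between the WT sexes (0.0324). DESeq2 called 1 gene, in XY +KTS KO. There Pdgfra differed by 0.31 (adjusted p = 0.456) and Pdgfrb by 1.33 (adjusted p = 0.101) without replicate 1.

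In +KTS KO gonads Pdgfa fell in XY, while the XX groups overlapped. Somatic Pdgfa was 25.5 and 48.1 CPM in XY +KTS KO against 108 and 113 in XY WT, a log2 fold change of -1.64 ± 0.27 (edgeR adjusted p = 0.00560), the 1 gene called beside 12.3% of all genes tested. Without XY +KTS KO replicate 1, the library that stood apart, it was -1.19 (adjusted p = 0.00249, with 1 library left in the group and the spread taken from the other groups), and the fit of the 2 groups alone lost the call (-1.66, adjusted p = 0.0848). In XX +KTS KO, Pdgfa was 41.3 and 44.3 CPM against 44.2 and 38.5, which overlap (0.08 ± 0.27, adjusted p = 0.927). The effect of +KTS loss on Pdgfa differed between XY and XX by -1.73 ± 0.38 (adjusted p = 0.0368), the 1 gene called beside 3.87% of all genes, and without XY +KTS KO replicate 1 by -1.28 (adjusted p = 0.00884). That call was lost without either XX WT, XY WT or XX +KTS KO library (adjusted p 0.0634 to 0.157), with the size between -1.86 and -1.61 in those fits, with the replicate block (-1.74, adjusted p = 0.0518), and over all kept cells (-0.998, adjusted p = 0.160) or with doublets kept (-1.04, adjusted p = 0.133). Sertoli-like cells were 37.96% and 51.8% of somatic cells in XY WT and at most 0.464% in every +KTS KO library.

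Somatic Pdgfb was the 1 gene called in XX +KTS KO, beside 5.02% of all genes tested. It was 1.496 and 1.38 CPM, from 144 and 115 UMIs, against 0.445 and 0.455 CPM in XX WT, higher by 1.71 ± 0.29 (edgeR adjusted p = 0.0121). The call was lost without any of the 4 libraries (adjusted p 0.0546 to 0.0918) and over all kept cells (0.80, adjusted p = 0.113). The endothelial markers summed to 43.7 and 38.6 CPM in the somatic cells of XX +KTS KO and 46.2 and 48.0 in XX WT. In XY +KTS KO, Pdgfb was 1.52 and 1.22 CPM against 1.34 and 1.06 (0.08 ± 0.28, adjusted p = 0.864). Averaged over the sexes, the +KTS KO effect was called for Pdgfa (-0.78 ± 0.19, adjusted p = 0.0264) and Pdgfb (0.90 ± 0.20, adjusted p = 0.0192), beside 12.3% of all genes tested. Without XY +KTS KO replicate 1 these were -0.55 (adjusted p = 0.00593) and 0.87 (adjusted p = 0.0290). Both calls were lost without XX WT replicate 1 or 2, XY WT replicate 2 or XX +KTS KO replicate 1 (adjusted p 0.0555 to 0.0978), and that of Pdgfa also without XY WT replicate 1 or XX +KTS KO replicate 2 (0.0696 and 0.0948).

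In the supporting lineage of XY +KTS KO, 3 genes were called beside 21.8% of all genes tested. Pdgfa was 34.1 and 75.5 CPM against 245 and 190.0 in XY WT, with a log2 fold change of -2.11 ± 0.37 (edgeR adjusted p = 0.00303). It was -1.57 without replicate 1, which had 3145 of its 3235 supporting-lineage cells in cluster 8. Replicate 2 had 300 such cells, mainly in clusters 25 and 28. A further 2576 cells of replicate 2 lay in cluster 0, which was unnamed, matched pre-supporting markers best and was outside this set. Cell classes were thus unlike in this comparison. The WT cells were mainly Sertoli-like, those of replicate 1 mainly pre-granulosa-like and those of replicate 2 mainly pre-supporting-like. Pdgfd was 4.04 and 2.97 CPM against 0.436 and 0.754, higher by 2.45 ± 0.43 (adjusted p = 0.00282). Its sums held 158 UMIs over both mutant libraries, against 39 over the WT ones. Clusters 25 and 28 of replicate 2 held only 9 and 3 of the mutant UMIs. Cluster 0 of that library, outside the set, held 62 Pdgfd UMIs at 1.66 CPM. Without replicate 1 the difference was 2.27, a value that rests on few UMIs of 1 mutant library. Pdgfra was 11.4 and 6.63 CPM against 15.0 and 14.3, with a log2 fold change of -0.77 ± 0.22 (adjusted p = 0.0292). It was -1.18 without replicate 1, again from the 300 cells of replicate 2. The Pdgfra call was lost without XY WT replicate 1 (adjusted p = 0.142), without XY +KTS KO replicate 2 (0.0726) and with clustering on log-normalized values (0.161). In XX +KTS KO, 1 gene was called beside 5.65% of all genes tested. Pdgfra was 5.07 and 4.96 CPM against 9.49 and 11.8 (-1.06 ± 0.25, adjusted p = 0.0345), a call lost without any of the 4 libraries (0.0759 to 0.211). It was also lost with clustering at resolution 1.2, where the direction turned (0.068, adjusted p = 0.912), with clustering on log-normalized values (-1.14, adjusted p = 0.426) and with the unnamed clusters that matched pre-supporting markers added (-0.47, adjusted p = 0.189). The compared cells differed in class, since 410 of 478 and 177 of 203 supporting-lineage cells of XX +KTS KO were pre-supporting-like, against 457 of 2889 and 415 of 2824 in XX WT. A further 3263 and 1435 cells of XX +KTS KO lay in cluster 0, an unnamed cluster outside this set. Within the pre-supporting-like class, Pdgfra was 3.61 and 4.26 CPM in XX +KTS KO and 3.73 and 5.16 in XX WT, which overlap.

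The mutants were also set against each other over both sexes, and 4 of the 6 genes were called beside 32.4% of all genes tested. In -KTS KO relative to +KTS KO, Pdgfa was higher by 1.24 ± 0.19 (edgeR adjusted p = 0.000770) and Pdgfc by 0.73 ± 0.16 (adjusted p = 0.00710). Pdgfd was higher by 0.70 ± 0.18 (adjusted p = 0.0144), a call lost without XX -KTS KO replicate 2 or XX +KTS KO replicate 2 (0.0578 and 0.0502). Pdgfb was lower, with a log2 fold change of -0.83 ± 0.20 (adjusted p = 0.00957). Without XY +KTS KO replicate 1 the values were 1.01 for Pdgfa, 0.65 for Pdgfc, 0.86 for Pdgfd and -0.81 for Pdgfb, all 4 still called. The receptors differed by -0.16 ± 0.18 (Pdgfra) and -0.25 ± 0.21 (Pdgfrb) and were not called, nor were they without that library (0.098 and -0.26).

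Outside the somatic cells, germ-like and endothelial-like cells were tested as sets added after seeing the data. Germ-like Pdgfa was 208 and 193 CPM in XX -KTS KO against 169 and 149 in XX WT (0.41 ± 0.16, edgeR adjusted p = 0.404). None of the 5 genes that passed the filter was called in germ-like cells, and Pdgfrb was too low to test (background 0.0799%, 0.0%, 0.0799%, 0.0% and 0.77% of 13774 genes for XX -KTS KO, XY -KTS KO, XX +KTS KO, XY +KTS KO and the WT sexes). The unadjusted p was below 0.05 in 8 of the 25 values, beside 1499, 831, 1137, 1125 and 1512 of 13774 genes in the same order. DESeq2 called 1, between the WT sexes. In endothelial-like cells Pdgfb was 138 and 119 CPM in XY +KTS KO against 37.4 and 67.8 in XY WT, higher by 1.24 ± 0.23 (edgeR adjusted p = 0.00824), the first of 2 genes called beside 4.25% of 10734 genes tested. The call was lost without XY WT replicate 1 (0.92, adjusted p = 0.165). Cluster 27, an endothelial-like cluster led by Etv2 of which 73.7% came from XY WT, held 15.1 and 15.4 CPM of Pdgfb in XY WT, while in cluster 18 alone XY WT held 63.8 and 111 CPM and XY +KTS KO 164 and 119. Pdgfb in XX +KTS KO was 114 and 125 CPM against 69.7 and 68.4 (0.86 ± 0.23, adjusted p = 0.142), with no gene called beside 0.158% of all genes tested. Without XY +KTS KO replicate 1 the XY difference in Pdgfb was 1.27 (adjusted p = 0.0112).

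Endothelial-like Pdgfc was highest in XY WT. It was 6.18 and 8.82 CPM there and 0.425 to 2.59 in the other 10. It was higher in XY WT than in XX WT (2.93 ± 0.61, edgeR adjusted p = 0.0247, the 1 gene called beside 1.58% of genes tested), lower in XY +KTS KO (-3.03 ± 0.65, adjusted p = 0.0192) and lower in XY -KTS KO (-2.28 ± 0.66, adjusted p = 0.0476, the 1 gene called beside 7.72%). The level was higher in cluster 27, at 10.8 and 18.5 CPM in XY WT, against 0.730 and 0.847 in cluster 18. Counts were small, with 106 Pdgfc UMIs in all 2072 endothelial-like cells, of which 75 were counted in cluster 27 and 28 in cluster 18. All 3 calls were lost under DESeq2 (adjusted p 0.105, 0.0671 and 0.196) and with clustering on log-normalized values, and that in XY -KTS KO also with the replicate block (adjusted p = 0.0505). They were also lost without most single libraries, the first and the last without any of 4 (adjusted p 0.143 to 0.284 and 0.0596 to 0.322) and the second without either XY WT library or XY +KTS KO replicate 2 (0.0841 to 0.155). The second was -3.91 (adjusted p = 0.0173) without XY +KTS KO replicate 1. In XX -KTS KO no gene was called, beside 0.838% of genes tested. The unadjusted p was below 0.05 there for Pdgfa, Pdgfb and Pdgfd, beside 1258 of 10734 genes. In XX +KTS KO it was below 0.05 for Pdgfb, beside 1167 of 10734 genes. DESeq2 called none in either, and Pdgfrb was too low to test.

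**Figure D5:**
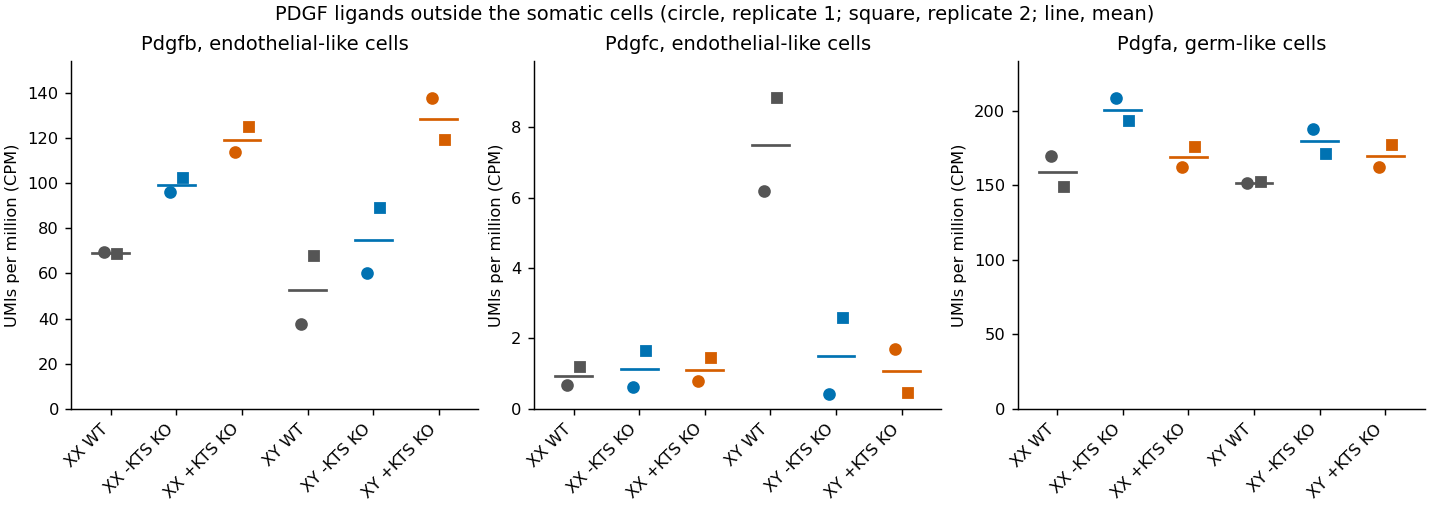
Pdgfb and Pdgfc in endothelial-like cells and Pdgfa in germ-like cells of each library in CPM, with replicate 1 as a circle, replicate 2 as a square and the group mean as a line. Endothelial Pdgfb is highest in +KTS KO (114 to 138), endothelial Pdgfc is highest in XY WT (6.18 and 8.82), and germ-like Pdgfa lies between 149 and 208 in all groups.

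Other genes of the pathway were followed in somatic cells by 5 lists. Of 8 genes for ligand processing and extracellular partners, 1 rose and 1 fell in XX -KTS KO, 0 rose and 3 fell in XY -KTS KO, 1 rose and 1 fell in XX +KTS KO, and 1 rose and 3 fell in XY +KTS KO, beside 16.2%, 23.5%, 5.02% and 12.3% of all genes tested. Pcsk5, a proprotein convertase, rose in XX -KTS KO (1.68 ± 0.23, edgeR adjusted p = 0.00167), and Nrp1, a co-receptor of this growth factor family, fell in XX -KTS KO (-1.43 ± 0.31, adjusted p = 0.0133) and XX +KTS KO (-1.84 ± 0.32, adjusted p = 0.0122). Nrp1 was also lower in XY than in XX WT (-1.18 ± 0.31, adjusted p = 0.0334). Pcsk5 was higher in XY than in XX WT (1.62 ± 0.23, adjusted p = 0.00242), rose in XX +KTS KO (0.97 ± 0.23, adjusted p = 0.0424) and fell in XY +KTS KO (-0.80 ± 0.23, adjusted p = 0.0494). Plat, the protease known to activate PDGF-C, fell in XY +KTS KO (-1.44 ± 0.27, adjusted p = 0.00915), as did Sparc, a matrix protein that binds PDGF (-1.24 ± 0.17, adjusted p = 0.00227). Both were higher in XY than in XX WT (1.36 ± 0.27 and 1.29 ± 0.17, adjusted p = 0.00995 and 0.00152), and Sparc also fell in XY -KTS KO (-0.55 ± 0.17, adjusted p = 0.0364). With XY +KTS KO replicate 1 left out, a setting added for the lists after seeing the data, the XY +KTS KO values were -1.41 for Plat (adjusted p = 0.0407), -1.23 for Sparc (adjusted p = 0.00827) and -0.58 for Pcsk5, which lost its call (adjusted p = 0.203). The list then had 1 higher and 2 lower members, beside 9.32% of all genes tested, and a median of -0.68. In the fits with all libraries, the list's median log2 fold change was 0.36, -0.35, 0.17 and -0.52 in the order above, against 0.01, 0.02, 0.00 and 0.05 over all genes tested. Between the WT sexes 4 were higher and 1 lower in XY, beside 13.3% of all genes tested, with a median of 0.58 against -0.02 over all genes, and Nrp2, a further co-receptor, had the largest of these differences (2.19 ± 0.42, adjusted p = 0.00861). The same shares over all genes stand behind the counts of the other 4 lists, and nothing particular to a list is read from them.

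Of 30 receptor adaptors and effectors, 0 rose and 3 fell in XX -KTS KO, 1 rose and 5 fell in XY -KTS KO, 1 rose and 1 fell in XX +KTS KO and 0 rose and 2 fell in XY +KTS KO (medians from -0.11 in XY -KTS KO to 0.06 in XY +KTS KO), and 3 were higher and 1 lower in XY than in XX WT. In both -KTS KO groups, in XY +KTS KO and between the WT sexes, these counts are at or below the share called over all genes (16.2%, 23.5%, 12.3% and 13.3%), and in XX +KTS KO they are near it (5.02%). The count in XY +KTS KO was again 0 higher and 2 lower, with a median of -0.095, when replicate 1 was left out. Fyn, a Src-family kinase, fell in both -KTS KO groups (-0.98 ± 0.18 and -1.60 ± 0.18, edgeR adjusted p = 0.00623 and 0.000367), while Pik3r1, a regulatory subunit of PI3-kinase, rose in XY -KTS KO (1.94 ± 0.21, adjusted p = 0.000256). Pik3r1 was lower in XY than in XX WT (-1.25 ± 0.20, adjusted p = 0.00404) and fell in XX +KTS KO (-1.06 ± 0.20, adjusted p = 0.0174). Of the 3 related class III receptor kinases, Kit rose in both -KTS KO groups (2.11 ± 0.35 and 2.00 ± 0.34, adjusted p = 0.00354 and 0.00289) and none was called in +KTS KO or between the WT sexes. Of 5 related ligands, Vegfc rose in XY -KTS KO (0.94 ± 0.26, adjusted p = 0.0245) and none was called in the other 3 mutant groups, while 1 was higher in XY than in XX WT. Of 13 growth factor response genes, 2 rose in XX -KTS KO, 3 fell in XY -KTS KO, none was called in XX +KTS KO and 1 rose and 2 fell in XY +KTS KO, with medians of 0.48, -0.10, 0.46 and 0.30, and 4 were higher in XY than in XX WT (median 0.99). The counts in XX and XY -KTS KO, 2 and 3 of 13, are near the shares over all genes. Spry4, a feedback inhibitor of receptor tyrosine kinases, fell in XY -KTS KO (-3.28 ± 0.57, adjusted p = 0.00302) and was higher in XY than in XX WT (2.85 ± 0.56, adjusted p = 0.00955), as was Dusp6, a phosphatase that dampens ERK signalling (2.18 ± 0.39, adjusted p = 0.00649). Egr2 rose in XY +KTS KO (2.41 ± 0.64, adjusted p = 0.0388), where the immediate-early genes of replicate 1 stood apart, and was 0.88 without that replicate (adjusted p = 0.253). Spry2, 1 of the 2 that fell in XY +KTS KO with all libraries (-1.09 ± 0.27, edgeR adjusted p = 0.0314), was -0.95 without that replicate and lost its call. Spry4, which was not among the 3 largest called falls of this comparison with all libraries, was -2.71 in that fit. The median over the 13 response genes was then 0.087.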

How the data were processed

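Single-cell suspensions of 12 libraries were sequenced by the 10x Genomics 3′ method, which counts transcripts at their 3′ end and cannot tell the WT1 variants apart. The deposited matrices hold raw UMI counts per gene and barcode that the authors made with Cell Ranger 6.0 (mm10). Barcodes under 1000 detected genes or over 10% mitochondrial counts were dropped, and doublets were scored per library with scrublet in scanpy 1.11.5 and removed at 0.8% per 1000 barcodes. Cells were clustered with Seurat 5.3.0 and sctransform 0.4.2 (3000 variable genes without the 6 PDGF genes, 50 components, resolution 0.8). Clusters took the name of a marker list when at least 3 markers were detected and the leading genes did not favour another type. UMIs were summed per library and set of at least 20 cells, scaled by TMM and tested with edgeR 4.0.16, with all groups in 1 fit. DESeq2 1.42.0, other filters, clusterings and left-out libraries were alternatives. The PDGF genes, lists and tests were chosen with earlier results of these data known. From the pathway lists, up to 3 genes with the largest rise and up to 3 with the largest fall per comparison could be named. The further calls of genes named in this way were added after their values were seen. Promoters came from RefSeq, with entries for 4 of the 6 genes used. Sums of UMIs from few cells limit precision.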

Additional observations from a re-analysis of the deposited data

Results flagged for a closer look

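The effect of +KTS loss on somatic Pdgfa differed between the sexes in a test of the difference itself. Pdgfa was 44.2 and 38.5 CPM in XX WT and 41.3 and 44.3 in XX +KTS KO, and 108 and 113 CPM in XY WT and 25.5 and 48.1 in XY +KTS KO. The log2 effect in XY was lower than that in XX by 1.73 (log2 difference -1.73 ± 0.38, edgeR adjusted p = 0.0368). Both XY +KTS KO libraries lay below both XY WT libraries, while the XX groups overlapped. Several alternatives lost the call. It was lost without either XX WT, XY WT or XX +KTS KO library (edgeR adjusted p 0.0634 to 0.157), with the replicate block (-1.74, adjusted p = 0.0518), over all kept cells (-0.998, adjusted p = 0.160) and with doublets kept (-1.04, adjusted p = 0.133). Without XY +KTS KO replicate 1 the difference was -1.28 (edgeR adjusted p = 0.00884), in a fit that leaves 1 library in that group and takes the spread from the others.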

How the results depend on the processing

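Each value below is the number of the 6 genes called, unless said otherwise. The share of all genes called under each alternative setting, DESeq2 included, is not given here. A changed count therefore cannot be told from a general change in how many genes were called. In somatic sums, the fit of the 2 groups alone gave 2 in XX -KTS KO (1 in the reported fit), 1 in XY -KTS KO (2) and 0 in XY +KTS KO (1). Sums over all kept cells, and the same with doublets kept, gave 0 in XX +KTS KO (1), 2 in XY +KTS KO (1) and 0 for the sex difference in the +KTS KO effect (1), and turned the sign of Pdgfb in XX -KTS KO from 0.82 to -0.20 and -0.18. DESeq2 and the absence of a count filter each gave 2 in XY +KTS KO and 2 for that difference, and 2 and 1 for the sex difference in the -KTS KO effect (0), which was also 1 without clusters 30 and 32.

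In the supporting lineage, XX +KTS KO (1) gave 2 with DESeq2, 3 without a filter and 0 at resolution 1.2 or with log-normalized clustering, and Pdgfra there went from -1.06 to 0.068 at resolution 1.2. The WT sexes (3) gave 5 with either of these clusterings. Interstitial cells of XY +KTS KO (0) gave 1 without a filter, 1 at resolution 1.2 and 2 with log-normalized clustering, and those of the WT sexes (0) gave 2 with the latter. Interstitial and mesenchyme-like cells (0) gave 1 in XX -KTS KO without a filter. In XY +KTS KO they gave 1 with DESeq2, 2 without a filter, 1 at resolution 0.4, 2 at resolution 1.2 and 1 with log-normalized clustering, and between the WT sexes 1 without a filter, at resolution 1.2 and with log-normalized clustering.

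Without a filter, germ-like cells (0) gave 1 in XX -KTS KO, 1 in XX +KTS KO and 2 between the WT sexes (1 with DESeq2), and endothelial-like cells 1 in XX -KTS KO (0), 1 in XX +KTS KO (0), 2 in XY -KTS KO (1) and 2 between the WT sexes (1). DESeq2 and log-normalized clustering gave 0, 1 and 0 in endothelial XY -KTS KO (1), XY +KTS KO (2) and the WT sexes, where RLE size factors gave 2. Coelomic cells of XX -KTS KO (2) gave 1 with log-normalized clustering. Those of XY -KTS KO (2) gave 4 at resolution 0.4 and 1 at resolution 1.2 or with log-normalized clustering. Those of XY +KTS KO (0) gave 1 with DESeq2, without a filter and with log-normalized clustering, and Pdgfc there went from -0.81 to 0.028 at resolution 0.4.

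Leaving out 1 library gave, in somatic cells, 0 to 0 in XX -KTS KO, 1 to 2 in XY -KTS KO, 0 to 0 in XX +KTS KO, 1 to 2 in XY +KTS KO, 0 to 2 between the WT sexes, 1 to 2 for the mean -KTS KO effect, 0 to 2 for the mean +KTS KO effect and 0 to 2 for the sex difference in the +KTS KO effect. In the supporting lineage it gave 2 to 3 in XX -KTS KO, 1 to 2 in XY -KTS KO and 0 to 0 in XX +KTS KO. It gave 0 to 1 in XY +KTS KO in both stromal sets, in endothelial-like cells 0 to 1 in XY -KTS KO, 0 to 2 in XY +KTS KO and 0 to 0 between the WT sexes, and in coelomic cells 1 to 1 in XX -KTS KO and 0 to 1 in XY -KTS KO. The cause of these changes was not tested.

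The reported fit did not treat replicate numbers as pairs. Correlations between groups of the difference of replicate 1 from replicate 2 ran from -0.214 to 0.166 over 17715 genes. These values cannot show whether some libraries shared a batch, which was not tested. With the replicate block, the sex difference in the +KTS KO effect on Pdgfa was -1.74 (edgeR adjusted p = 0.0518), leaving 0 of the 6 genes called there. The next counts cover only member fold changes with an unadjusted edgeR p below 0.05 in the reported fit. Weaker ones, whose direction may turn more easily, were not counted. Under the other settings, 582 of these values kept direction and side of the threshold, 54 passed it anew, 26 no longer did and 4 turned. With 1 library left out, 295 kept both, 7 passed anew and 78 no longer did. Comparisons of interstitial cells with -KTS KO were not run, since no such library held 20 cells. Before TMM scaling the median over all genes was 0.14 in somatic XY +KTS KO and 0.18 in its supporting lineage.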
